A study of Homo sapiens with 30 samples.

Results

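The linker histone genes HIST1H1A, HIST1H1B, HIST1H1C, HIST1H1D, HIST1H1E and H1FX were followed in RNA from HEK293FT, a human embryonic kidney cell line. They are 6 of the 27630 genes in the count tables, taken by symbol: 5 replication-dependent genes of the HIST1 cluster and H1FX, a linker histone gene with polyadenylated transcripts. The genes were chosen by measured values: HIST1H1E and HIST1H1C had large increases at the native lamina over the nuclear fraction. Values of that comparison are therefore given as a description with no test. RNA was counted in 4 groups of 2 libraries: a nuclear fraction, a cytosolic fraction, RNA labelled near the lamina by the peroxidase APEX2 in a native preparation, and the same after fixation with PFA (paraformaldehyde). Cells of all 4 groups were asynchronous and carried a transfected fusion of APEX2 with lamin B1, the fractions included. Total RNA was taken with Trizol and depleted of ribosomal RNA. None of these groups is an unlabelled or untransfected control. Positions of the genes were also set against lamina domains mapped in HCT116, a colorectal carcinoma line, in G1, S and G2.

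Linker histones bind the nucleosome where DNA enters and leaves it, and help to compact chromatin. The replication-dependent H1 genes have no introns and are transcribed mainly in S phase, and their mRNAs end in a conserved stem-loop in place of a poly(A) tail. H1FX is transcribed outside S phase too and gives a polyadenylated mRNA. Libraries depleted of ribosomal RNA can hold both kinds of transcript.

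In hg19 the 5 replication-dependent genes lie on chromosome 6: HIST1H1A at 26017260 to 26018040, HIST1H1C at 26055968 to 26056699, HIST1H1E at 26156559 to 26157343, HIST1H1D at 26234440 to 26235216 and HIST1H1B at 27834570 to 27835359. HIST1H1E is on the plus strand and the other four are on the minus strand. H1FX lies on the minus strand of chromosome 3 at 129033614 to 129035120. Each is annotated as 1 exon. H1FX overlaps the antisense gene H1FX-AS1 by 7 bases, and the counting ignored strand. HIST1H1C, HIST1H1D and HIST1H1E are close paralogs, so the split of counts between them is uncertain where reads fit more than 1 copy.

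The promoters are shown because the expressed and the nearly silent replication-dependent genes can be compared in them. The 150 bases before the annotated start are given 5′ to 3′ on the gene's strand, from RefSeq (GRCh38.p14), for all 6 genes. Capitals mark matches, on either strand, to AAACACA (the H1 box, an element of linker histone promoters), ACCAATCA (a stretch around the CCAAT box, CCAAT) and TATAAA or TATATA, which may overlap each other. They lie at chr6:27867589-27867738 for HIST1H1B, chr6:26056471-26056620 for HIST1H1C, chr6:26234988-26235137 for HIST1H1D, chr6:26156179-26156328 for HIST1H1E, chr6:26017788-26017937 for HIST1H1A and chr3:129316287-129316436 for H1FX; HIST1H1E is on the plus strand and the others on the minus strand.
HIST1H1B: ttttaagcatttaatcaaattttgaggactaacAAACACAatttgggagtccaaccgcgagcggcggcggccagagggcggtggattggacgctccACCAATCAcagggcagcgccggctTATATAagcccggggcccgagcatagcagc
HIST1H1C: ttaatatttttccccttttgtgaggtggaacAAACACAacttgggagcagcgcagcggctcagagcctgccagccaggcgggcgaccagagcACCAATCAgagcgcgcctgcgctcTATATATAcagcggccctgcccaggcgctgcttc
HIST1H1D: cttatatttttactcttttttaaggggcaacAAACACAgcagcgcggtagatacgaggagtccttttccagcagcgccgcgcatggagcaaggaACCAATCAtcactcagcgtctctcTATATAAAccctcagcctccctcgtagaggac
HIST1H1E: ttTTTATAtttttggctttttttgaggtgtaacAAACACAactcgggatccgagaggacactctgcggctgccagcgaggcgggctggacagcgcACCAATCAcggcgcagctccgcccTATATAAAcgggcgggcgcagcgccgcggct
HIST1H1A: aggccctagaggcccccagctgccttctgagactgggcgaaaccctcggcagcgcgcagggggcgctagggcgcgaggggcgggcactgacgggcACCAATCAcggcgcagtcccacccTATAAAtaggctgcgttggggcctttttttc
H1FX: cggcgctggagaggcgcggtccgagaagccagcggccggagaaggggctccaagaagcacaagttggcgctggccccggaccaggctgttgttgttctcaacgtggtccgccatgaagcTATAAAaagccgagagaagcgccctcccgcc

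AAACACA began 117 bases before the start in HIST1H1B and HIST1H1E and 119 bases before it in HIST1H1C and HIST1H1D. In these genes ACCAATCA began 61 to 63 bases further on, and 4 of 35116 promoters held the pair at that spacing, all from these 4 genes; the spacing was chosen after it was seen in them. The testis-type gene HIST1H1T held both motifs in the same order, AAACACA 105 bases before the start and ACCAATCA 50 bases further on. HIST1H1A held ACCAATCA, but AAACACA was found in it on the opposite strand alone, outside the printed bases. H1FX held TATAAA and neither of the other motifs in the 250 bases searched. In those 250 bases, both strands, AAACACA occurred in 4.82% of all promoters, ACCAATCA in 1.78%, CCAAT in 32.0%, TATAAA in 10.7% and TATATA in 3.73%. Of 54 replication-dependent core histone promoters, 0 held AAACACA, 25.9% held ACCAATCA, 81.5% held CCAAT, 70.4% held TATAAA and 22.2% held TATATA. HIST1H1B, nearly without counts in these libraries, thus carried the same arrangement as HIST1H1C, HIST1H1D and HIST1H1E.

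**Figure D1:**
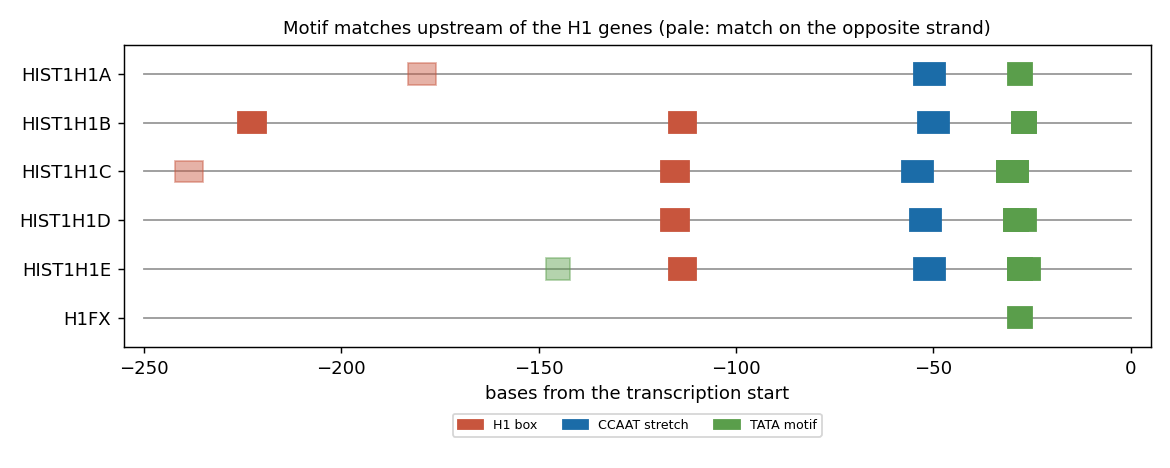
Motif matches in the 250 bases before the start of 6 linker histone genes; the horizontal axis is the distance from the transcription start in bases, and pale boxes are matches on the opposite strand. HIST1H1B, HIST1H1C, HIST1H1D and HIST1H1E share an H1 box 117 to 119 bases before the start, and H1FX has a TATA match alone.

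Total counts ran from 2321291 in PFA replicate 2 to 8557777 in native replicate 1, so a floor of 3 counts amounts to 0.351 to 1.29 CPM (counts scaled by library size). LMNB1, the gene of the fusion, took 0.304% to 0.520% of counts in the fractions, 8.60% and 2.96% in the native replicates, and 8.89% and 9.49% in the PFA ones. All 7 HEK293FT markers were above the floor in each group, against at most 2 of 6 for K562 or HCT116. Summed nuclear RNAs (MALAT1, NEAT1, KCNQ1OT1) were at 13600 to 19800 CPM in the nuclear fraction, 996 to 1060 in the cytosolic, 7130 to 15400 at the native and 658 to 4810 at the PFA lamina. Summed mRNAs abundant in cytosol (GAPDH, ACTB, EEF1A1, RPLP0, TUBA1B) were at 962 to 1420 CPM in the nuclear fraction, 5760 to 7830 in the cytosolic, 2580 to 2670 at the native and 2410 to 3010 at the PFA lamina. The PFA replicates correlated at 0.911 across genes, below 0.96 to 0.968 in the other groups. The labels do not say whether replicates came from separate cultures, so p-values measure the spread between these libraries, which may be technical. In bulk RNA, fewer cells making a transcript and less of it per cell cannot be told apart.

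HIST1H1A and HIST1H1B were at or near the floor in every library. HIST1H1A had 6 and 2 counts in nuclear replicates 1 and 2, 0 and 0 in the cytosolic replicates, 3 and 1 in the native and 0 and 0 in the PFA replicates. HIST1H1B had 1 and 1, 2 and 2, 2 and 0, and 5 and 0 counts in the same order. Neither passed the filter on low counts, and no fold is given for them. Outside these genes, HIST1H1T had 1 to 8 counts.

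The near silence of these genes did not extend to the HIST1 genes nearest to them, while other HIST1 genes of the cluster were at the floor too. HIST1H3A, which starts 3458 bases from HIST1H1A, had 59 to 514 counts. HIST1H2AL, the nearest HIST1 gene before HIST1H1B, had 30 to 691 counts, and HIST1H3I on its other side had 23 to 242. The table held 56 HIST1 genes on chromosome 6. In the stretch from HIST1H1A to HIST1H4H, which also holds HIST1H1C, HIST1H1D and HIST1H1E, 22 of 32 HIST1 genes passed 50 counts in some library and 6 stayed at or under 3 in all. In the stretch from HIST1H2BL to HIST1H2BO, around HIST1H1B, this held for 10 and 3 of 16.

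**Figure D2:**
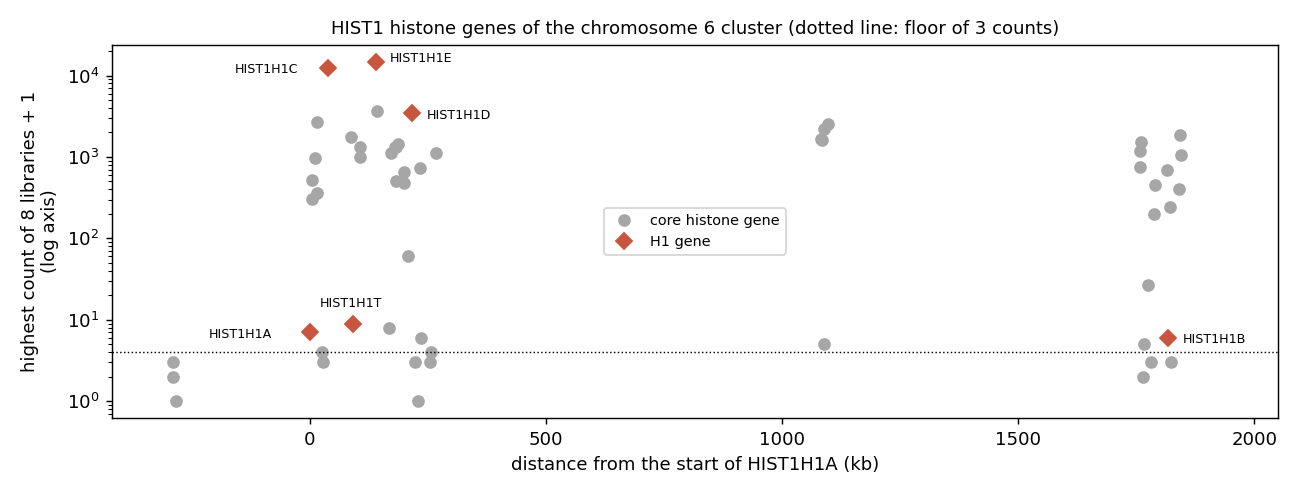
Highest count of 8 libraries, plus 1, on a log axis, for HIST1 histone genes against distance in kb from the start of HIST1H1A; diamonds are H1 genes, circles core histone genes, and the dotted line is the floor of 3 counts. HIST1H1C, HIST1H1D and HIST1H1E stand far above HIST1H1A and HIST1H1B, which have core histone genes of far higher count beside them.

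Normalised CPM (CPM after TMM scaling) of the 4 other genes follow, replicate 1 before replicate 2. HIST1H1E, the most abundant, was at 88.5 and 145 in nuclear RNA, 630.2 and 885 in cytosolic RNA, 1537 and 1177 in the native and 693 and 376 in the PFA preparation. HIST1H1C, a somatic H1 widely made in dividing cells, was at 69.9 and 135, then 586 and 893, 1283 and 917, and 584 and 294. Both were highest in the native libraries and lowest in the nuclear ones, and for both the replicates lay furthest apart in the PFA preparation, by 1.84-fold for HIST1H1E and 1.98-fold for HIST1H1C. HIST1H1D was at 25.6 and 33.3, then 233 and 239, 355 and 263, and 194 and 94.0 in the same order of groups. H1FX was at 48.2 and 78.2, then 232 and 278, 148 and 225, and 156 and 177. All 4 had their lowest values in the nuclear libraries, with no overlap with any other group. The nuclear libraries entered the choice of genes, and how many of all genes separate in this way was not counted.

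**Figure D3:**
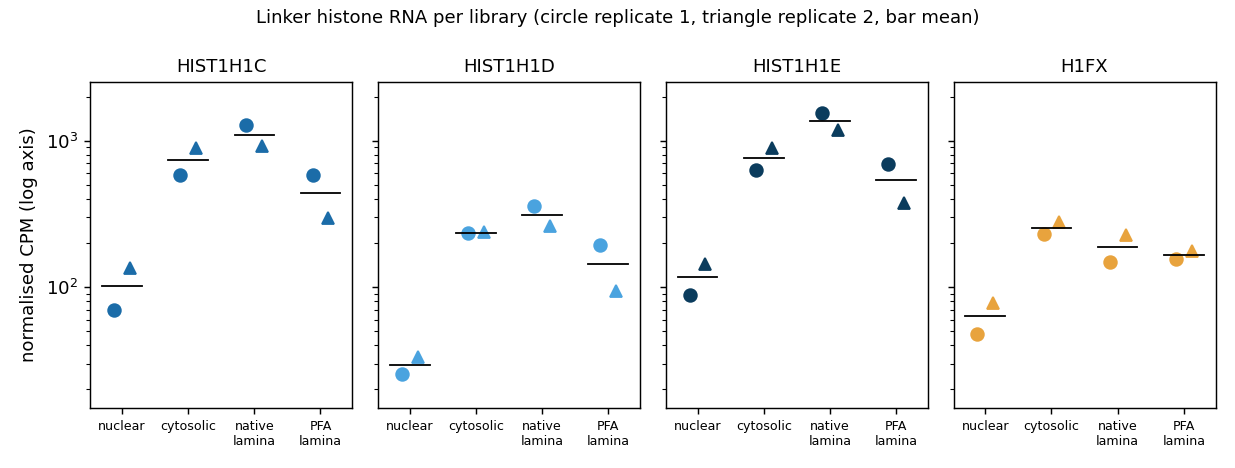
Normalised CPM on a log axis for 4 linker histone genes in nuclear, cytosolic, native lamina and PFA lamina libraries; circles are replicate 1, triangles replicate 2, and bars the mean of 2. The nuclear libraries lie lowest in every panel, and the 3 HIST1 genes are highest at the native lamina.

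Levels are compared between genes per kb of exon, as normalised CPM per kb (mean ± SD, n = 2). In the cytosolic fraction the order was HIST1H1C at 1010 ± 297, HIST1H1E at 965 ± 229, HIST1H1D at 303 ± 5.37 and H1FX at 169 ± 21.8; the first 2 overlapped. At the native lamina HIST1H1E at 1728 ± 325 and HIST1H1C at 1502 ± 353 overlapped, above HIST1H1D at 398 ± 84.0 and H1FX at 124 ± 36.2. At the PFA lamina HIST1H1E at 681 ± 286 and HIST1H1C at 599.5 ± 280 overlapped, above HIST1H1D at 185 ± 90.7 and H1FX at 110 ± 9.76. In the nuclear fraction HIST1H1E at 148 ± 50.5 and HIST1H1C at 140 ± 62.9 overlapped, and H1FX at 41.9 ± 14.1 and HIST1H1D at 37.9 ± 6.95 also overlapped. HIST1H1E and HIST1H1C thus had the highest levels of these genes in all 4 groups.

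The fractions were compared to see where H1 RNA was found. All 4 genes tested were lower in nuclear RNA, in a comparison that called 47.3% of 16504 genes, 26.1% higher and 21.2% lower. Their median log2 fold change was -2.78, beside 0.13 for all genes. The log2 fold change was -3.0 for HIST1H1D (SE 0.37, adjusted p = 0.000549 by edgeR's quasi-likelihood test with Benjamini-Hochberg adjustment), 8-fold higher in the cytosol. It was -2.85 for HIST1H1C (SE 0.44, adjusted p = 0.000801) and -2.70 for HIST1H1E (SE 0.41, adjusted p = 0.000752). H1FX fell by 2.01 (SE 0.33, adjusted p = 0.000948); its difference from the HIST1 genes was not tested. This comparison shares the nuclear libraries with the one that singled out these genes.

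At the native lamina all 4 were higher than in the nuclear fraction, by a log2 fold change of 3.54 (SE 0.42) for HIST1H1E, 3.42 (SE 0.46) for HIST1H1C, 3.39 (SE 0.38) for HIST1H1D and 1.56 (SE 0.33) for H1FX. These are the values that led to the choice of genes; 7.31% of all genes were called there, 3.87% higher and 3.44% lower, with a median of -0.07. The summed cytosolic mRNAs were also above their nuclear values here, at 2580 to 2670 CPM against 962 to 1420; their part in the H1 values was not tested.

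Against the cytosolic fraction, 0 of the 4 passed edgeR's test at the native lamina, beside 13.8% of all genes (6.99% higher and 6.77% lower, median 0.10). DESeq2 called 0 of them too, beside 1377 genes higher and 1409 lower of 16504. By edgeR 1 of the 4 had an unadjusted p under 0.05, beside 31.7% of all genes. That gene was HIST1H1E, at 0.84 (SE 0.38, adjusted p = 0.15); total counts in place of TMM gave 1.16 (adjusted p = 0.0352). HIST1H1C was at 0.57 (SE 0.41, adjusted p = 0.362) and HIST1H1D at 0.39 (SE 0.34, adjusted p = 0.454). Both native libraries lay above both cytosolic ones for each of the 3. H1FX was at -0.45 (SE 0.32, adjusted p = 0.352), with both native libraries below both cytosolic ones in normalised CPM. How many of all genes separate in this way was not counted, and the native libraries entered the choice of genes. By total counts the H1FX groups overlapped, with native replicate 2 at 256 CPM and the cytosolic replicates at 239 and 227. The log2 fold change of H1FX was then -0.14.

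At the PFA lamina all 4 genes were higher than in the nuclear fraction, where 17.4% of all genes were called, 9.63% higher and 7.81% lower, with a median of -0.04. The summed cytosolic mRNAs were higher too, at 2410 to 3010 CPM against 962 to 1420, and their part was not tested. The nuclear libraries are shared with the comparison behind the choice of genes, which favours higher values here. The log2 fold change was 2.29 for HIST1H1D (SE 0.37, adjusted p = 0.00619) and 2.20 for HIST1H1E (SE 0.40, adjusted p = 0.00754). HIST1H1C was at 2.1 (SE 0.43, adjusted p = 0.0106) and H1FX at 1.40 (SE 0.33, adjusted p = 0.0169). Without nuclear replicate 1 no H1 gene passed, nor did more than 1 gene higher and 12 lower among all genes. HIST1H1D was at 1.69 without PFA replicate 1.

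PFA lamina against cytosolic fraction is the comparison that shares no library with the one behind the choice of genes. None of the 4 passed by edgeR, beside 0.673% of all genes called, 0.527% higher and 0.145% lower. DESeq2 called 0 of them too, beside 552 genes higher and 430 lower of 16504. By edgeR 0 of the 4 had an unadjusted p under 0.05, beside 21.5% of all genes. HIST1H1C was at -0.75 (SE 0.42, adjusted p = 0.308), HIST1H1D at -0.71 (SE 0.35, adjusted p = 0.253) and HIST1H1E at -0.50 (SE 0.38, adjusted p = 0.462). H1FX was at -0.62 (SE 0.32, adjusted p = 0.277). Without PFA replicate 1, HIST1H1C (-1.38, adjusted p = 0.0408) and HIST1H1D (-1.38, adjusted p = 0.0163) were called lower, in a fit that called 1703 genes higher and 1166 lower of 17478.

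Between the lamina preparations, the 3 HIST1 genes were lower after fixation in both libraries, without passing the test. The share of all genes separated in this way was not counted. The log2 fold change of PFA over native lamina was -1.34 for HIST1H1E (SE 0.39, adjusted p = 0.312), -1.32 for HIST1H1C (SE 0.42, adjusted p = 0.32) and -1.10 for HIST1H1D (SE 0.35, adjusted p = 0.32). Their unadjusted p-values were 0.00393, 0.00745 and 0.00721, among 11% of genes with one under 0.05. The native libraries entered the choice of genes, which favours lower values after fixation, so these p-values do not stand free of that choice. No gene of 16504 was called by edgeR (0%), while 897 were higher and 923 lower at an unadjusted p under 0.05. DESeq2 called 73 higher and 150 lower, and the 3 HIST1 genes were among the latter. Without PFA replicate 2 edgeR called 309 genes higher and 433 lower of 17240, and none of the 4 H1 genes. Without PFA replicate 1 HIST1H1C was at -1.92 (adjusted p = 0.215) and HIST1H1D at -1.73 (adjusted p = 0.143), and without PFA replicate 2 they were at -0.91 (adjusted p = 0.216) and -0.67 (adjusted p = 0.253). H1FX was at -0.17 (SE 0.32, adjusted p = 0.879), with overlapping libraries.

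Shares within a library do not depend on how libraries are scaled. Of the summed counts of the replication-dependent genes and H1FX, the former took 79.4% (95% Wilson interval 77.2 to 81.3) and 80.0% (78.3 to 81.6) in nuclear RNA. In cytosolic RNA they took 86.2% (85.6 to 86.8) and 87.9% (87.3 to 88.5). At the native lamina they took 95.5% (95.3 to 95.8) and 91.3% (90.8 to 91.7), above the other 6 libraries. In the PFA preparation they took 90.4% (89.8 to 91.0) and 81.2% (79.7 to 82.7). The intervals of native replicate 2 and PFA replicate 1 overlapped. The replicates of each lamina preparation, and of the cytosolic fraction, lay further apart than their intervals, which cover counting error only. LMNB1 took 8.60% of counts in the native library with the larger share and 2.96% in the other; its part in the gap was not tested. The mean log2 level of HIST1H1C, HIST1H1D and HIST1H1E minus that of H1FX was 0.16 ± 0.02 in the nuclear fraction (SD, n = 2), 0.99 ± 0.08 in the cytosolic, 2.06 ± 0.73 at the native and 0.88 ± 0.81 at the PFA lamina. Nuclear and native libraries entered the choice of genes. The cytosolic libraries lay above the nuclear ones and the native above both, while the PFA libraries spanned the cytosolic values. This choice of 3 genes was made after the data were seen; with HIST1H1A and HIST1H1B, both near the floor, the differences were -2.51 ± 0.33, -3.05 ± 0.02, -2.20 ± 0.77 and -2.88 ± 0.81.

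The makeup of the 3 expressed HIST1 genes varied less between libraries than the ratio of HIST1H1E to H1FX did. HIST1H1E took 43.5% to 49.9% of their counts over the 8 libraries, HIST1H1C 38% to 44.3% and HIST1H1D 10.6% to 16.1%. The HIST1H1D share differed within groups, at 16.1% and 11.8% in the cytosolic replicates and 13.9% and 10.6% in the nuclear ones. How reads shared by these paralogs were counted is not known, and their part in these shares was not tested. The ratio of HIST1H1E to HIST1H1C counts ran from 0.991 to 1.28. That of HIST1H1E to H1FX ran from 1.84 in nuclear replicate 1 to 10.4 in native replicate 1. Nuclear and native libraries entered the choice of HIST1H1E and HIST1H1C, which favours this contrast. In the cytosolic and PFA libraries, which did not enter it, the ratio of HIST1H1E to H1FX ran from 2.13 to 4.45. Counts of the 6 genes made up 0.023% to 0.374% of a library.

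The replication-dependent H1 genes were then set beside 66 core histone genes, taken by symbol as replication-dependent. This class encodes the nucleosome's own proteins, and its mRNAs mostly share the stem-loop ending. The ending of each gene's transcript was not checked. Only symbols with PS were left out as pseudogenes, so others may remain. H1 took 24.2% and 27% of the summed H1 and core counts in nuclear RNA, 23.3% and 23.7% in cytosolic RNA and 26.6% and 25% in the PFA preparation. At the native lamina it took 42.3% (95% Wilson interval 42.0 to 42.7) and 46.2% (45.7 to 46.7), above the other 6 libraries. The native libraries entered the choice of genes, so no test is given.

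**Figure D4:**
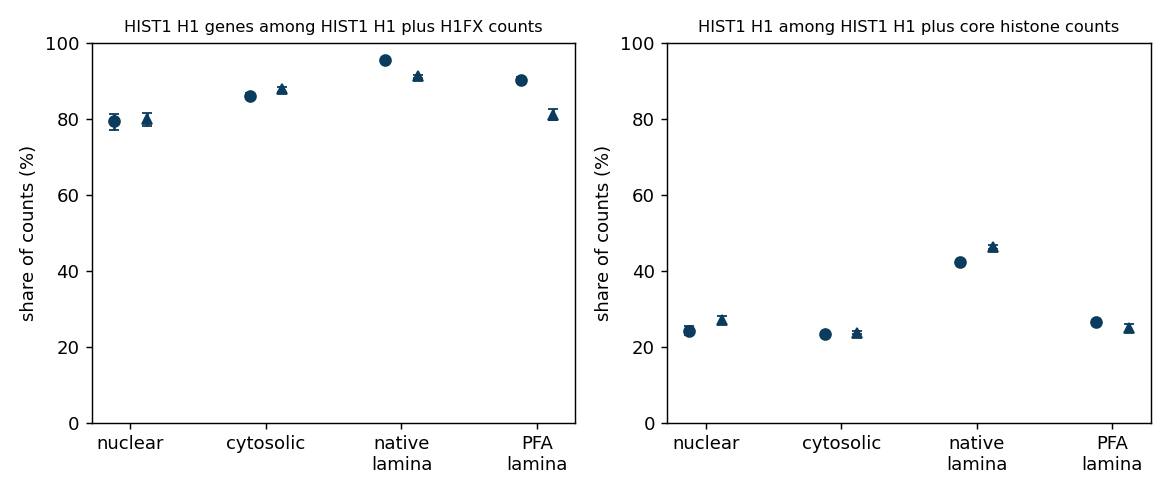
Share of counts in percent, per library, with 95% Wilson intervals; circles are replicate 1 and triangles replicate 2. Left, replication-dependent H1 genes among their counts plus those of H1FX, from 79.4% to 95.5%; right, H1 among replication-dependent H1 and core histone counts, where the native libraries lie at 42.3% and 46.2%.

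Of the 66 core genes 43 were tested. In the nuclear against the cytosolic fraction 41 were lower, beside 21.2% of all genes, with a median log2 fold change of -2.94 beside -2.85 for the 3 H1 genes. At the PFA lamina over the nuclear fraction 40 were higher, beside 9.63% of all genes, with a median of 2.16 beside 2.20. Core and H1 genes thus had similar medians in both of these comparisons. At the native lamina over the nuclear fraction, the comparison behind the choice of genes, the core median was 1.98. HIST1H1E, HIST1H1C and HIST1H1D had the 3 largest folds of the 46 genes, a rank that the choice itself favours. Over the cytosolic fraction 10 core genes were lower at the native lamina and 0 higher, beside 6.77% and 6.99% of all genes, with a median of -0.54. HIST1H1E, HIST1H1C and HIST1H1D ranked 2, 3 and 4 of 46 there, after HIST2H2BC (log2 fold change 1.59, adjusted p = 0.362). HIST2H2BC, listed by its symbol alone, also stood apart in nuclear against cytosolic RNA, at 1.72 where the core median was -2.94. HIST1H3A, a core gene beside HIST1H1A, had the lowest value of native lamina over cytosolic, -2.30 (SE 0.39, adjusted p = 0.00625). For PFA over native lamina the H1 genes ranked 42, 44 and 45 of 46. The ranks over the cytosolic fraction and for PFA over native lamina also use the native libraries, which entered the choice.

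Transcript length differed between these genes. The median exonic length of the 43 core genes was 469 bases, and HIST1H1C, HIST1H1D and HIST1H1E had 732, 777 and 785. Across the 43 core genes, which share libraries and are not independent, Spearman's rho of log2 fold change with length was 0.344 for native lamina over cytosolic and -0.46 for PFA over native lamina. The 5 core genes of at least 700 bases had medians of -0.16 and -0.87 in these comparisons. The shorter ones had -0.68 and 0.07, and the 3 H1 genes 0.57 and -1.32. Among these 5 is HIST1H3D (921 bases), whose annotated span holds the shorter HIST1H2AD (510 bases). A read was counted for each gene it overlapped, and their counts were nearly equal, at 739 and 729 in cytosolic replicate 1. The median of -0.16 is the value of HIST1H3D, beside -0.18 for HIST1H2AD. The part of length, or of transcript ending, in the H1 values was not tested.

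**Figure D5:**
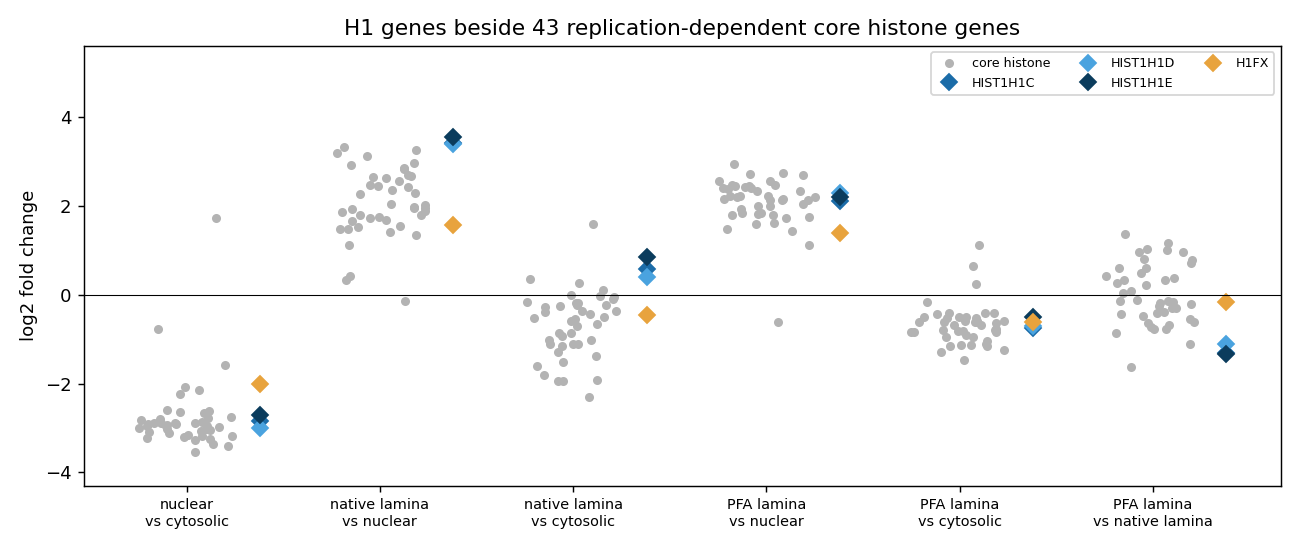
Log2 fold change in 6 comparisons for 4 linker histone genes (diamonds) and 43 replication-dependent core histone genes (grey circles, spread sideways for visibility). The 3 HIST1 genes lie at the top of the core genes for native lamina over nuclear and near the bottom for PFA over native lamina. The native libraries entered the choice of genes, which favours both positions.

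Genes that act on H1 or on histone mRNA were described by lists, to be read beside the 26.1% of all genes called higher and 21.2% called lower in nuclear than cytosolic RNA. Of 10 H1 chaperones and competitors, 7 were lower and 0 higher in nuclear than cytosolic RNA, with a median of -1.69; HMGA1, a chromatin protein that competes with H1 for DNA, was at -2.89 (SE 0.51, adjusted p = 0.00123) and PTMA, which binds H1, at -2.26 (SE 0.48, adjusted p = 0.00294). At the PFA lamina over the nuclear fraction HMGA1 was at 2.07 (SE 0.50, adjusted p = 0.018) and the H1 chaperone NASP at -1.17 (SE 0.29, adjusted p = 0.0194), with 3 of 10 higher and 1 lower, beside 9.63% and 7.81% of all genes. Of 13 genes of histone mRNA 3′ end processing tested, 9 were lower in the nuclear fraction, led by SNRPF at -2.26 (SE 0.44, adjusted p = 0.00178). Of 7 genes of histone gene transcription, 2 were higher there and 1 lower, near the shares over all genes; NPAT, the coactivator of replication-dependent histone genes, was at 1.88 (SE 0.30, adjusted p = 0.000857), opposite in sign to the H1 genes. NPAT was lower at the PFA lamina than in the nuclear fraction, at -1.52 (SE 0.30, adjusted p = 0.00913). Of 6 genes of histone mRNA decay, 2 were lower in the nuclear fraction, also near that share, LSM1 at -1.94 (SE 0.47, adjusted p = 0.00523) and UPF1 at -0.96 (SE 0.31, adjusted p = 0.0219). Of 8 polyadenylated replacement core histones tested, 6 were lower in the nuclear fraction, with a median of -1.63.

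Likeness of pattern was measured as Pearson's r of log2 level over the 8 libraries, which form 4 groups, among 7733 genes with at least 50 counts in each. HIST1H1C and HIST1H1E followed each other at 0.996, while H1FX followed the 3 HIST1 genes at 0.841 to 0.865. Nuclear and native libraries entered the choice of HIST1H1C and HIST1H1E, which favours a high value between these genes. The genes most like the mean of the 5 replication-dependent H1 genes were KPNA6 (0.973), HIST1H2AI (0.968) and HIST1H2AM (0.966). Core histones were 5 of the first 10, and made up 0.362% of genes compared. The mean of 5 includes HIST1H1A and HIST1H1B, which were at or near the floor. With HIST1H1C, HIST1H1D and HIST1H1E alone, HIST1H2BD came first (0.982) and 4 of 10 were core histones. Those most like H1FX were LMNB2 (0.992), ELF4 (0.99), CAVIN1 (0.989), KIAA1522 (0.988) and EEF1A2 (0.987), of which 0 were core histones.

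None of the 6 genes lay inside a lamina domain of HCT116 in G1, S or G2, and neither did any of the 56 HIST1 genes. Of 27200 genes on 1 chromosome, 6.74%, 5.94% and 8.28% lay wholly inside a domain in the 3 stages. The nearest domain was 1.82 Mb from HIST1H1A in S and G2 and 5.56 Mb from H1FX in S, the shortest and longest distances of the 6. The domains come from another cell line than the RNA, as 1 deposited list per stage.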

How the data were processed

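RNA of 8 HEK293FT libraries was deposited as read counts per gene symbol, made with featureCounts (Subread 1.5.2) on hg19 with RefFlat genes, per the file headers, with strand ignored and a read counted for each gene it overlapped. TopHat2 2.1.1 and Bowtie2 2.3.2 are named in the submitters' processing notes. The header of cytosolic replicate 1 names the output of nuclear replicate 1; it was kept as labelled. Domain lists were deposited as intervals, 1 list per stage.

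Genes were filtered with filterByExpr by group, leaving 16504, and tested with edgeR 4.0.16 under R 4.3.3 (TMM, quasi-likelihood test, 1 fit of 8 libraries, 1 coefficient per group, Benjamini-Hochberg over all genes, call at an adjusted p under 0.05). Log2 levels used a prior count of 2. The test was checked on simulated counts with 200 changed genes. Alternatives were other scalings, other filters, DESeq2 1.42.0, 4-library fits, a replicate block, and leaving out each library. The members and lists were chosen with earlier results of these data known. Genes named from a list were the largest called changes in each direction, at most 2 each; HIST2H2BC and the neighbours of HIST1H1A and HIST1H1B were named after their values were seen. Wilson intervals (95%) and the floor of 3 counts cover counting error only, since reads are not independent molecules. A further linker histone gene is not reported here, so H1FX alone stands for the polyadenylated kind. K562 samples, whose labels conflict, and the pulled-down, input and ChIP libraries were not analysed here.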

Additional observations from a re-analysis of the deposited data

How the results depend on the processing

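With 2 libraries a group, 1 library can decide a call, and a lone library left in a group was assumed to vary like the others. Leaving out 1 library in turn gave 0 to 4 H1 genes called for PFA lamina over nuclear (0 without nuclear replicate 1, with 1 gene higher and 12 lower of 16949), 0 to 2 for PFA lamina over cytosolic (2 without PFA replicate 1, with 1703 higher and 1166 lower of 17478), and 4 throughout for nuclear against cytosolic. Total counts gave 1 call for native lamina over cytosolic, where 1648 genes were higher and 584 lower of 16504. For PFA over native lamina, no filter gave 2 calls, beside 123 genes higher and 149 lower of 23649, and DESeq2 gave 3, beside 73 and 150 of 16504. Native lamina over nuclear, which chose the genes, is left out of these counts of calls. Total counts moved the median of all genes by 0.29 for the native lamina over either fraction and by 0.17 for the PFA lamina, and all-gene calls for native lamina over nuclear from 639 higher and 568 lower to 1671 and 237. Upper-quartile factors moved the median by 0.27 for nuclear against cytosolic, and its calls from 4314 higher and 3497 lower to 5248 and 2519.

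The 5 replication-dependent genes minus H1FX gave 0.53 for nuclear against cytosolic, 0.32 for native lamina over nuclear, -0.36 for PFA lamina over nuclear and 0.17 for PFA lamina over cytosolic. With at least 10 counts in every library, or with the 3 genes above the floor (added after seeing the data), which are the same genes, these were -0.83, 1.90, 0.72 and -0.11. Leaving out 1 library gave 0.30 to 0.77, -0.21 to 0.86, -0.94 to 0.21 and -0.39 to 0.75 in the same order. DESeq2 and the 4-library fits give no value of this difference.

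Of 340 alternative values of single genes in the 5 comparisons other than native lamina over nuclear, 326 kept direction and call, 5 lost the call, 8 gained it and 1 changed sign: H1FX for PFA over native lamina, at -0.45 to 0.16 on leaving out 1 library. Same-numbered libraries deviated together with correlations of -0.067 to 0.321 over 6 pairs of groups. The highest were 0.321 for native with PFA lamina and 0.28 for nuclear with cytosolic. These values do not settle whether the numbers mark pairs. The main fit did not take them as pairs, and a replicate block was an alternative. With the replicate block 4 H1 genes were called for nuclear against cytosolic, beside 4562 genes higher and 3771 lower of 16504. For PFA lamina over nuclear 4 were called, beside 1882 genes higher and 1674 lower. Native lamina over cytosolic gave 0, beside 1514 higher and 1496 lower. PFA lamina over cytosolic gave 0, beside 279 and 124, and PFA over native lamina gave 0, beside 0 and 0.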
